A study of Mus musculus with 4 samples.

Results

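The 10 genes described here encode the vascular growth factor Vegfa, the angiopoietin Angpt1, their receptors and co-receptors Flt1, Kdr, Nrp1, Tek and Tie1, and the endothelial genes Eng, Plvap and Ehd3. They were taken by symbol from the 25636 genes of the count matrices, and all 10 were found. Their identifiers in the files are ENSMUSG00000023951 (Vegfa), ENSMUSG00000022309 (Angpt1), ENSMUSG00000029648 (Flt1), ENSMUSG00000062960 (Kdr), ENSMUSG00000025810 (Nrp1), ENSMUSG00000006386 (Tek), ENSMUSG00000033191 (Tie1), ENSMUSG00000026814 (Eng), ENSMUSG00000034845 (Plvap) and ENSMUSG00000024065 (Ehd3). The matrices come from nuclei of the kidney cortex of female mice, captured in droplets and sequenced from the 3' end of their RNA. There were 4 groups of 1 library each: MRL/lpr mice at 6 weeks, C57BL/6 mice at 6 weeks, MRL/lpr mice at 10 weeks and C57BL/6 mice at 10 weeks. MRL/lpr mice carry the lpr mutation of the death receptor gene Fas on the MRL background and develop a lupus-like nephritis, and C57BL/6 is an unrelated inbred strain. No MRL group with intact Fas was among the samples, so lpr, the MRL background and nephritis cannot be told apart in a strain ratio. The labels do not say how many mice went into a library. With 1 library per group no test between groups was possible: values describe these 4 libraries, and every interval is a 95% interval that covers counting error only.

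Vegfa is secreted mainly by epithelial cells and acts on neighbouring capillaries through the tyrosine kinase receptor Kdr, while Flt1 binds the same ligand tightly and can act as a decoy, and Nrp1 is a co-receptor. Angpt1 is the activating ligand of the receptor Tek, and Tie1 is a partner of Tek. In the glomerulus, Vegfa from podocytes maintains the fenestrated capillary next to them. Eng is a co-receptor for ligands of the TGF-beta family, Plvap forms the diaphragms of fenestrae and caveolae, and Ehd3 is a membrane trafficking protein known from glomerular endothelium.

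The promoters of 3 receptor and co-receptor genes whose UMIs lay mostly in endothelium are shown because they hold letters of the motif of ETS factors, a family that includes the endothelial regulators Erg and Fli1. Each line gives the 250 bases before the RefSeq start on build GRCm38.p6, read 5' to 3' on the strand of the gene. Capitals mark AGGAAG or CGGAAG on either strand.
Flt1, chr5:147726012-147726261, minus strand: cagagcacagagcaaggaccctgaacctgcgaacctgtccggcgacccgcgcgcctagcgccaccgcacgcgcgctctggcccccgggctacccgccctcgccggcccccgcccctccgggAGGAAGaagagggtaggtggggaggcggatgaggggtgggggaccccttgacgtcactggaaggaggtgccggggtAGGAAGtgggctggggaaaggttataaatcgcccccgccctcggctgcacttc
Tie1, chr4:118489850-118490099, minus strand: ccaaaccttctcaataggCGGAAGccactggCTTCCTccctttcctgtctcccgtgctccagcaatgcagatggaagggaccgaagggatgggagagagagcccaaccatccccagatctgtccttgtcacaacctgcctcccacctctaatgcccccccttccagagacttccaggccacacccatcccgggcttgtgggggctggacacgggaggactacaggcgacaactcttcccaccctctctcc
Eng, chr2:32646345-32646594, plus strand: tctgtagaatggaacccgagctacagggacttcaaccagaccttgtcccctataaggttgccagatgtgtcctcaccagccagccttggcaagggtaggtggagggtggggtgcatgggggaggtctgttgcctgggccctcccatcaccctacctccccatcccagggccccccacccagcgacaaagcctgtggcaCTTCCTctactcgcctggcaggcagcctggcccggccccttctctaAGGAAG
Of the 8 members with a promoter entry, 4 held one of these spellings (Eng, Flt1, Nrp1 and Tie1), against 39.2% of all 32851 promoters of the same length. The matches in Flt1 began 129 and 53 bases before the start, those in Tie1 232 and 219 bases, and those in Eng 52 and 6 bases. The hypoxia response core, ACGTG or GCGTG on either strand, was held by Flt1, Kdr, Nrp1 and the second Vegfa start, against 38.6% of all promoters. The first Vegfa start had 0 matches, and that share counts each start on its own. Altogether 6 spellings were looked at, and these were kept after their matches had been seen. The matches describe the letters only.

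The libraries held 9365 to 10182 barcodes and 6466973 to 7660682 UMIs (unique molecular identifiers, each standing for 1 captured RNA molecule). Pairs of libraries shared 112 to 143 barcodes. After filters 7817 to 8662 nuclei per library were kept, 32368 in all, with medians of 617 to 693 UMIs. Nuclei took the class whose marker genes gave most UMIs, and no member gene was among the markers. All 11 endothelium markers were detected in the endothelium-like class of every library, as were all 10 podocyte markers in the podocyte-like class. The mural-like class had 8 of 10 markers in the library with fewest, and 81.6% of its marker UMIs were renin (Ren1), from 53 Ren1 UMIs in C57BL/6 10 weeks to 544 in MRL/lpr 10 weeks. Endothelium held 1242 nuclei (312, 423, 185 and 322, in the order of the groups given above), podocyte 668, mural 72, fibroblast 370 and immune 157. The 4 tubule classes held 26757 nuclei, of which 18980 were proximal tubule-like. Unclassed nuclei made up 9.58%.

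The genes fell into clear sources (the bar plot of the share of UMIs by class). Of the UMIs in classed nuclei, endothelium held 74.5% of Flt1, 74.1% of Plvap, 69.7% of Kdr, 68.3% of Tie1, 66.9% of Tek, 63.4% of Eng and 50.0% of Ehd3, although it made up 3.84% of the kept nuclei. Nrp1 was the exception among the receptors, with 18.3% of its UMIs in endothelium and 57.2% in proximal tubule. Vegfa had 70.3% of its UMIs in proximal tubule and 11.2% in podocytes, and Angpt1 had 87.5% in proximal tubule. A class with many nuclei holds many UMIs at a low level, so levels are given next as CPM, UMIs per 1000000 UMIs of the class.

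**Figure D1:**
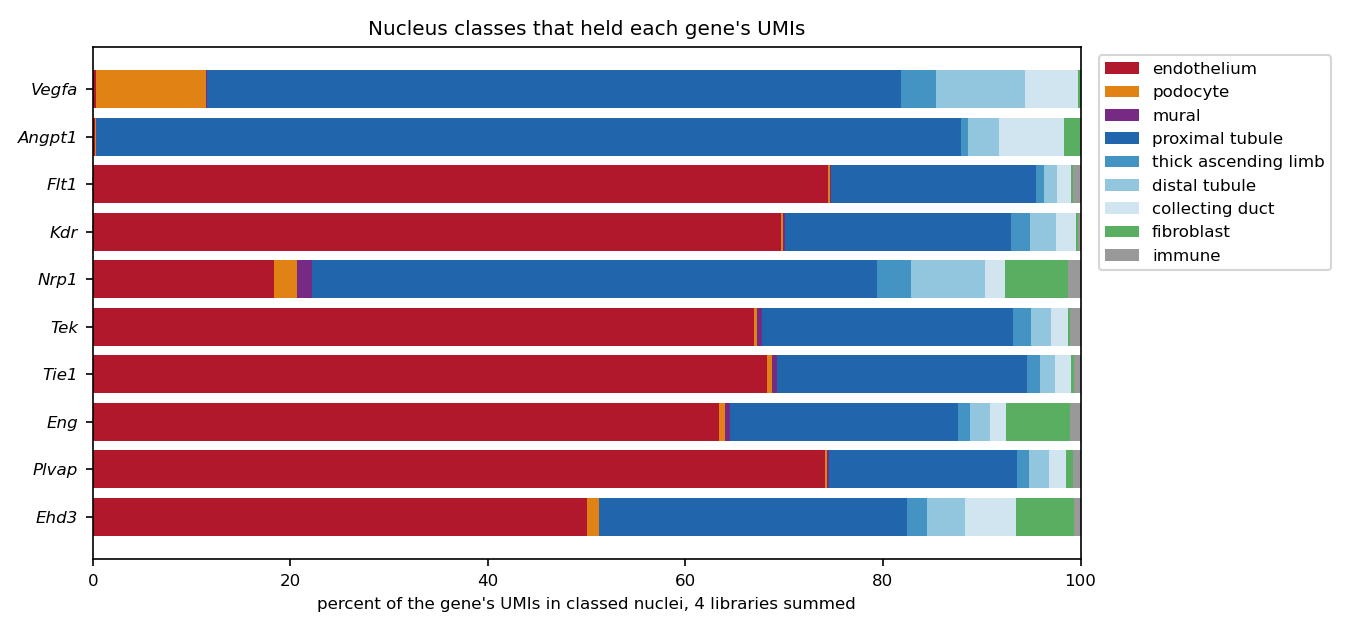
Each bar divides a gene's UMIs, summed over the 4 libraries, among the 9 nucleus classes (x axis, percent). Flt1, Plvap, Kdr, Tie1, Tek and Eng lie mostly in endothelium, and Vegfa, Angpt1 and Nrp1 mostly in proximal tubule.

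Vegfa was highest in podocytes in all 4 libraries. Podocyte-like nuclei held 129 UMIs (2019 CPM) in MRL/lpr 6 weeks, 163 (1966 CPM) in C57BL/6 6 weeks, 166 (1606 CPM) in MRL/lpr 10 weeks and 215 (2063 CPM) in C57BL/6 10 weeks. This was 9.68-fold (8.0 to 11.6), 7.0-fold (5.90 to 8.27), 6.70-fold (5.64 to 7.90) and 6.29-fold (5.41 to 7.27) over proximal tubule in the same order. Podocytes stood above every tubule class in each library, and their Vegfa levels lay close together except in MRL/lpr 10 weeks, which was lowest. After each nucleus was thinned to 308 UMIs, a Vegfa UMI was found in 41.2, 45.8, 39.2 and 44.8% of podocyte nuclei (57.1, 56.4, 58.9 and 56.6% unthinned). In endothelium, the class that receives the signal, the thinned share was 0.962, 2.13, 0 and 0.621%, and the 0 of 185 nuclei in MRL/lpr 10 weeks allows a share of thinned nuclei with a UMI of up to 1.62% (3 nuclei). Endothelium held only 6, 11, 1 and 2 Vegfa UMIs.

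The tubule classes had lower Vegfa levels. Proximal tubule held 1045 UMIs (209 CPM), 1024 (281 CPM), 955 (240 CPM) and 1216 (328 CPM), and a thinned UMI share of 6.43, 8.46, 7.43 and 10.8%. Distal tubule was at 217, 350, 284 and 429 CPM, from 75, 193, 80 and 197 UMIs. Its fold over proximal tubule was 1.04 (0.811 to 1.31) and 1.18 (0.929 to 1.49) in MRL/lpr at 6 and 10 weeks, and 1.25 (1.06 to 1.46) and 1.31 (1.12 to 1.52) in C57BL/6. Thick ascending limb was at 190, 251, 159 and 275 CPM and collecting duct at 178, 270, 146 and 287 CPM. These 2 classes did not differ from each other beyond counting error in any library.

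Vegfa was lower in MRL/lpr than in C57BL/6 in all 4 tubule classes at both ages. In proximal tubule the strain ratio (MRL/lpr over C57BL/6, log2) was -0.43 (-0.55 to -0.30) in the younger and -0.45 (-0.58 to -0.33) in the older mice. The same ratio was -0.69 and -0.60 in distal tubule and -0.60 and -0.97 in collecting duct, with intervals below 0. In thick ascending limb the older mice gave -0.79 (-1.41 to -0.19) and the younger -0.41 (-1.0 to 0.18), an interval that spans no difference. Both MRL/lpr libraries thus lay below both C57BL/6 libraries in each of these classes. The share of all genes with that order is not given. In these 4 classes MRL/lpr Vegfa was at both ages at least 1.25-fold below C57BL/6, a size set after its values had been seen. Of all genes with at least 200 UMIs, 7.65% met that rule in proximal tubule, 7.1% in thick ascending limb, 9.14% in distal tubule and 8.4% in collecting duct. All 70 alternative values of the Vegfa strain ratio in tubule classes were below 0. In collecting duct at 10 weeks the one nearest to 0 was -0.084, with nuclei of at least 500 UMIs.

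In podocytes the strain ratio of Vegfa was 0.04 (-0.31 to 0.38) at 6 weeks, so no difference was detectable at this depth. The 10-week ratio was -0.36 (-0.66 to -0.06). Vegfa was then at least 1.25-fold apart, as were 63% of podocyte genes with at least 200 UMIs, so a difference of this size was common. The 2 strain ratios share no library. The median of 792, 860, 745 and 831 UMIs per proximal tubule nucleus was, like Vegfa, lower in MRL/lpr at each age. The other tubule classes did not follow this at 6 weeks, where their medians were higher in MRL/lpr. Medians were 474, 448, 426 and 483 in thick ascending limb, 558.5, 528, 520 and 521 in distal tubule and 484, 447.5, 433 and 451 in collecting duct. Podocyte markers in proximal tubule nuclei were at 643, 640, 695 and 844 CPM, almost alike at 6 weeks and lower in MRL/lpr at 10 weeks. The part of depth and of podocyte RNA in the tubule result was not tested. Over age, with libraries shared with the strain ratios, proximal tubule Vegfa had a log2 ratio of 10 over 6 weeks of 0.20 (0.07 to 0.33) in MRL/lpr and 0.22 (0.10 to 0.35) in C57BL/6.

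**Figure D2:**
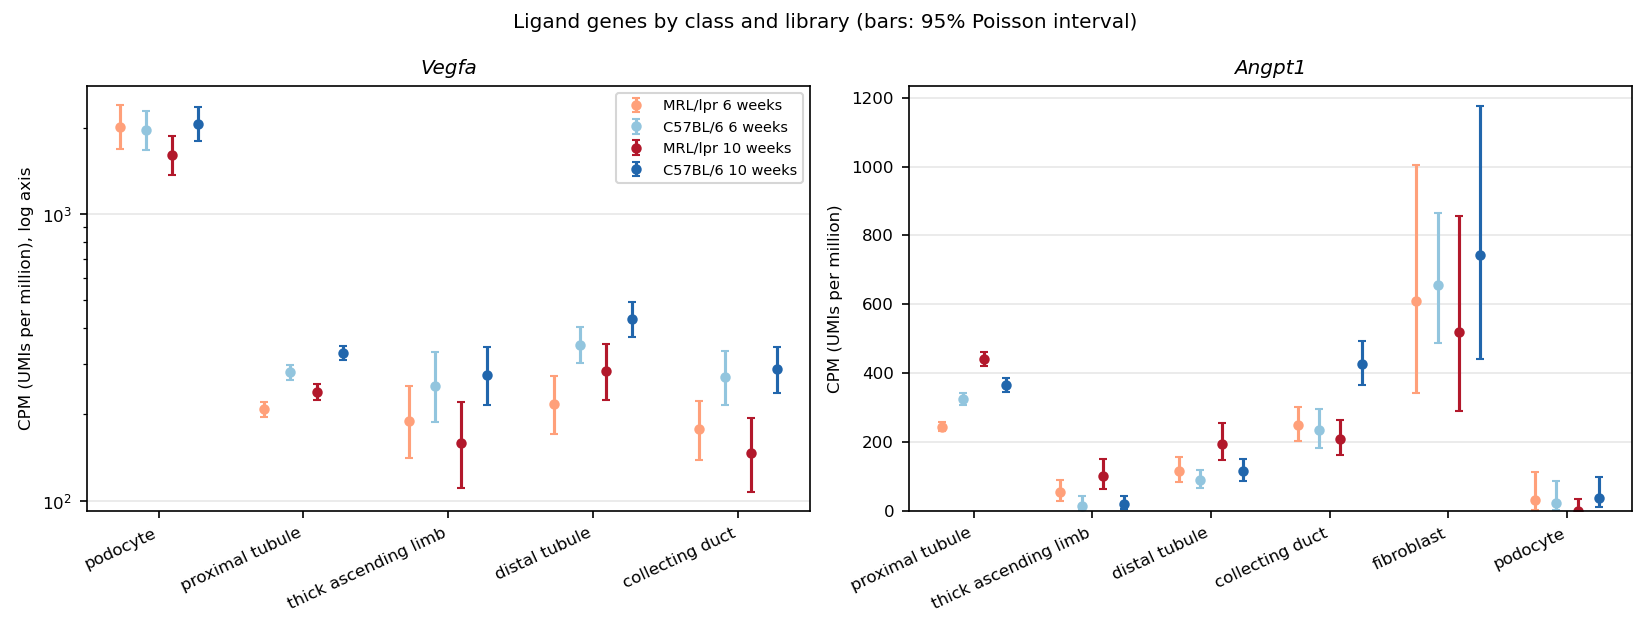
CPM of Vegfa (left, log axis) and Angpt1 (right, linear axis) by class, 1 point per library, with bars for the 95% Poisson interval. Vegfa in MRL/lpr lies below C57BL/6 in every tubule class at both ages, while for proximal tubule Angpt1 MRL/lpr is lower at 6 weeks and higher at 10 weeks.

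Angpt1, the ligand of Tek, was highest in fibroblasts, at 609, 656, 518 and 743 CPM, though from only 15, 50, 15 and 18 UMIs. Proximal tubule held 1225 UMIs (245 CPM), 1182 (324 CPM), 1756 (441 CPM) and 1354 (365 CPM). Fibroblasts were 2.49-fold (1.39 to 4.13), 2.02-fold (1.49 to 2.69) and 2.03-fold (1.20 to 3.23) over proximal tubule in 3 libraries, but in MRL/lpr 10 weeks the fold was 1.18 (0.656 to 1.94). Collecting duct was at 249, 234, 209 and 426 CPM, and did not lie on the same side of proximal tubule in every library. In MRL/lpr 10 weeks collecting duct was well below proximal tubule, at 209 against 441 CPM. Podocytes held 2, 2, 0 and 4 UMIs. Mural cells, a known source of Angpt1 in other vascular beds, had 0 UMIs in all 4 libraries, which allows 220 to 426 CPM per library in this small class.

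The strain ratio of Angpt1 in proximal tubule lay on opposite sides of 0, at -0.41 (-0.52 to -0.29) in the younger and 0.27 (0.17 to 0.37) in the older mice. MRL/lpr 6 weeks was the lowest library and MRL/lpr 10 weeks the highest. The same libraries gave a log2 ratio of 10 over 6 weeks of 0.85 (0.74 to 0.96) in MRL/lpr and 0.17 (0.06 to 0.29) in C57BL/6. In collecting duct the strain ratio was 0.09 (-0.36 to 0.54) in the younger and -1.03 (-1.46 to -0.62) in the older mice, where the C57BL/6 10 weeks library stood apart at 426 CPM. There 2 of the 3 members with at least 50 UMIs, Angpt1 and Nrp1, were at least 2-fold apart at 10 weeks, beside 8.6% of all genes. Thick ascending limb held 14, 3, 22 and 5 Angpt1 UMIs, too few for that comparison, with more in both MRL/lpr libraries (log2 ratios 1.90 and 2.43).

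Flt1, Kdr, Tek, Tie1, Eng and Plvap stood highest in endothelium in every library. Flt1 was 59.6-fold (51.5 to 69.0), 177-fold (140 to 226), 364-fold (257 to 528) and 130-fold (108 to 158) over proximal tubule. The lowest of these folds belongs to MRL/lpr 6 weeks, where proximal tubule nuclei held most Flt1. For Kdr, Tek, Tie1, Eng and Plvap the same fold was between 61.1 (Eng, MRL/lpr 6 weeks) and 314 (Plvap, MRL/lpr 10 weeks). Podocytes, the neighbours of glomerular capillaries, held 0 to 4 UMIs of each of these 6 genes per library. Fibroblasts were the next class for Eng, at 731, 1011, 1278 and 991 CPM, and endothelium was 2.56-fold to 4.56-fold above them.

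**Figure D3:**
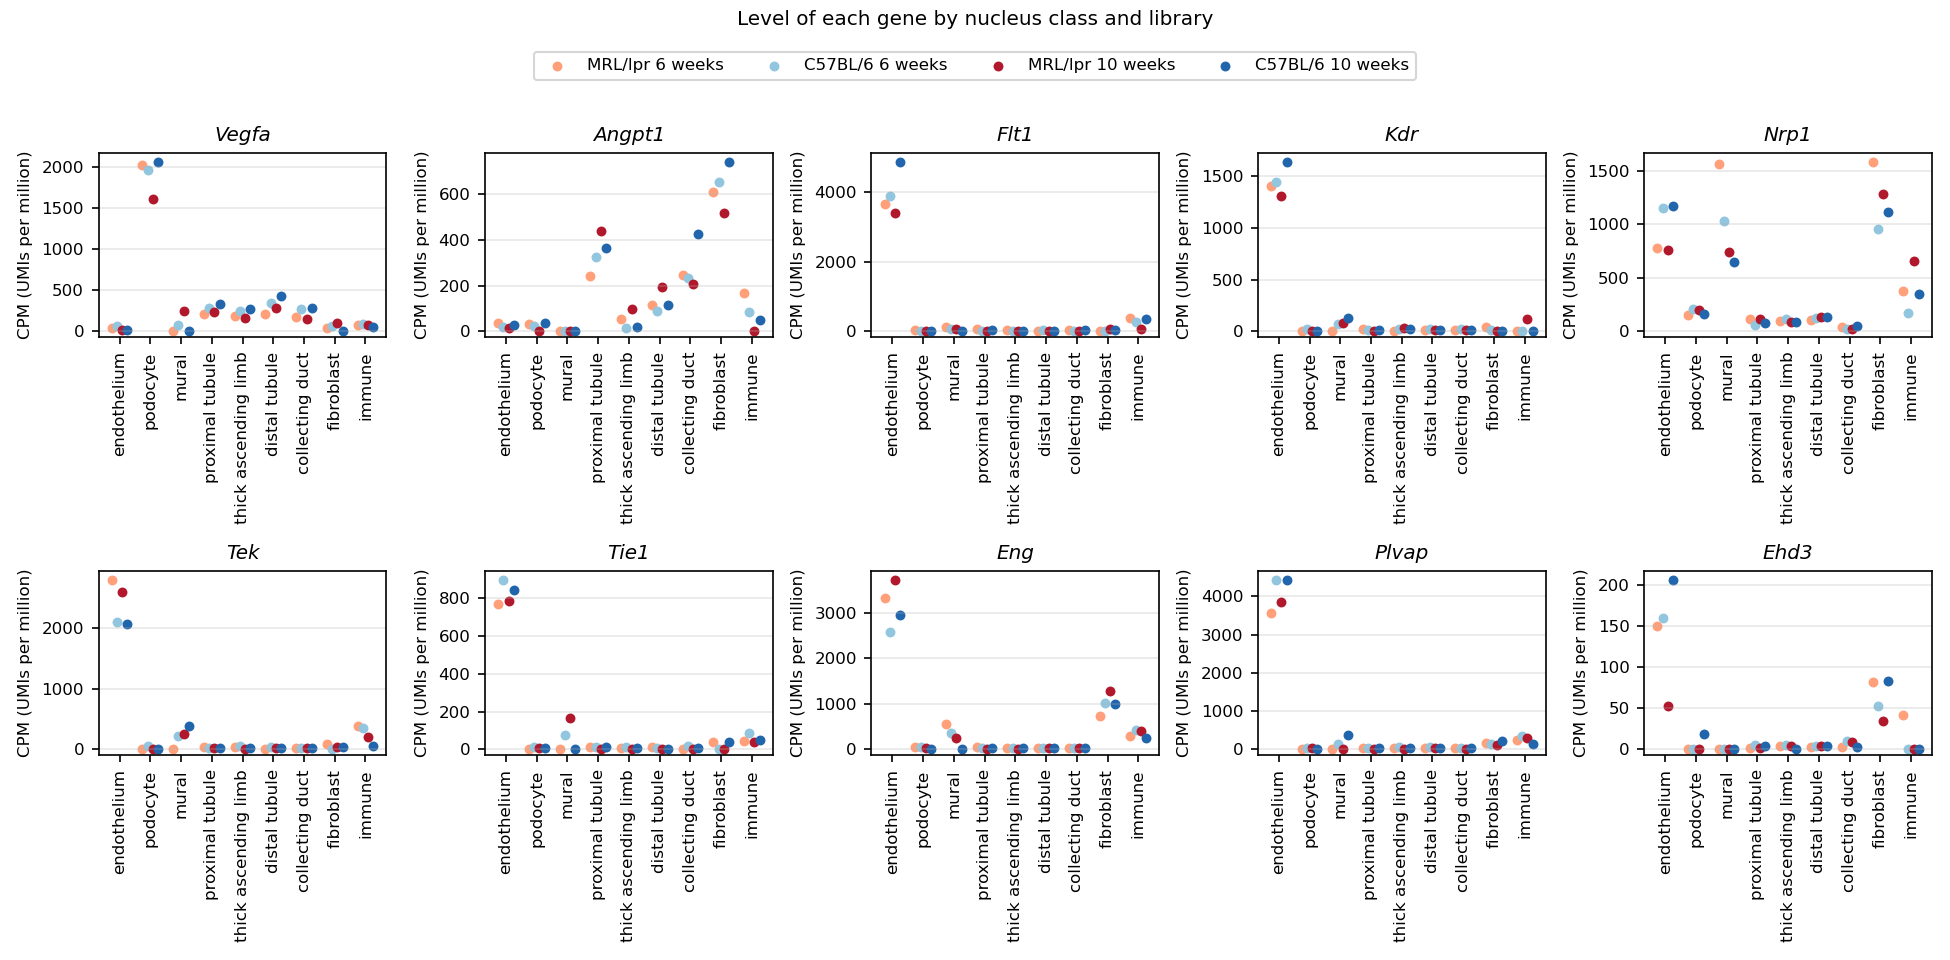
CPM (y axis, linear, own scale in each panel) of the 10 genes in 9 nucleus classes, with 1 point per library and no error bars. Endothelium stands apart for Flt1, Kdr, Tek, Tie1, Eng and Plvap, podocytes for Vegfa, and Nrp1 is spread over endothelium, mural cells and fibroblasts.

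Nrp1, which also binds semaphorins, was spread more widely. Endothelium was at 780, 1148, 760 and 1167 CPM, fibroblasts at 1584, 958, 1278 and 1115 CPM and mural cells at 1563, 1027, 738 and 645 CPM. Fibroblasts were 2.03-fold (1.37 to 2.96) over endothelium in MRL/lpr 6 weeks and 1.68-fold (1.08 to 2.58) in MRL/lpr 10 weeks, while the folds of 0.834 and 0.956 in the C57BL/6 libraries had intervals spanning 1. Mural values rest on 5 to 14 UMIs a library. Podocytes were lower, at 157, 205, 203 and 163 CPM, and collecting duct was the lowest class, at 41.9, 25.7, 21.8 and 52.7 CPM.

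The receptors were found together in single nuclei. After thinning to 308 UMIs, at least 1 UMI of Flt1, Kdr, Nrp1, Tek, Tie1 or Eng was found in 96.8, 95.3, 95.1 and 94.4% of endothelium nuclei, and at least 2 of these genes in 84.0, 79.7, 77.3 and 82.6%. In proximal tubule nuclei, the background class, 6.63, 4.90, 4.87 and 4.98% had at least 1. Unthinned medians were 354 to 375 UMIs in endothelium and 745 to 860 in proximal tubule. The thinned share for Tek alone was 59.0, 46.1, 55.7 and 46.0% (67.0, 53.7, 63.2 and 53.7% unthinned), against 0.485 to 1.06% in proximal tubule. The thinned Nrp1 share was 22.8, 27.7, 18.4 and 29.8%, with 1.72 to 3.33% in proximal tubule.

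Between strains, endothelial genes differed by small amounts. Of the 10 members, 8 had at least 50 UMIs in endothelium: 2 lay above C57BL/6 at both ages in MRL/lpr (Tek and Eng), 6 lower (Flt1, Kdr, Nrp1, Tie1, Plvap and Ehd3), and 0 lay in opposite directions. Over all 2402 genes with that many UMIs, 26.6% were higher and 31.1% lower at both ages. The members' median log2 ratio was -0.09 at 6 weeks and -0.26 at 10 weeks, beside -0.05 and -0.01 over those genes. None was 2-fold apart in the same direction at both ages, beside 1.46% of genes higher and 1.25% lower. At 6 weeks alone none was 2-fold apart (7.99% of genes), and at 10 weeks Ehd3 was (15% of genes). At the smaller size of 1.25-fold, among genes with at least 200 UMIs, Tek and Eng were higher at both ages (9.34% of genes) and Nrp1 was lower (13.3%).

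Tek, the angiopoietin receptor, held 372 UMIs (2791 CPM) in MRL/lpr 6 weeks, 341 (2094 CPM) in C57BL/6 6 weeks, 198 (2594 CPM) in MRL/lpr 10 weeks and 271 (2067 CPM) in C57BL/6 10 weeks. Tek was higher in MRL/lpr at each age, and the C57BL/6 libraries were almost alike. The log2 ratio was 0.41 (0.20 to 0.63) in the younger and 0.33 (0.06 to 0.60) in the older mice. Its partner Tie1 was at 765, 897, 786 and 839 CPM with log2 ratios of -0.23 (-0.61 to 0.15) and -0.09 (-0.57 to 0.37), so no difference was detectable at this depth.

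Eng held 444 UMIs (3331 CPM), 422 (2592 CPM), 285 (3734 CPM) and 387 (2952 CPM). Eng too was higher in MRL/lpr at each age, and the log2 ratio was 0.36 (0.17 to 0.56) in the younger and 0.34 (0.11 to 0.56) in the older mice. Tek and Eng stayed above 0 in every alternative, from 0.20 to 0.60 for Tek and from 0.21 to 0.81 for Eng.

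Nrp1 went the other way in endothelium. It held 104 UMIs (780 CPM), 187 (1148 CPM), 58 (760 CPM) and 153 (1167 CPM), lower in MRL/lpr at each age. The log2 ratio was -0.56 (-0.92 to -0.20) in the younger and -0.62 (-1.08 to -0.17) in the older mice. With nuclei of at least 500 UMIs only, which left 49, 34, 28 and 36 endothelium nuclei, it was -1.29 and 0.0087, so the 10-week direction was not kept.

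Flt1, the high-affinity Vegfa receptor, held 485 UMIs (3639 CPM), 633 (3888 CPM), 258 (3381 CPM) and 637 (4859 CPM). C57BL/6 10 weeks was the highest library. The log2 ratio was -0.10 (-0.27 to 0.08) in the younger and -0.52 (-0.74 to -0.31) in the older mice, and 0.19 at 10 weeks with nuclei of at least 500 UMIs. Kdr was at 1403, 1443, 1310 and 1640 CPM from 187, 235, 100 and 215 UMIs, with log2 ratios of -0.04 (-0.33 to 0.24) and -0.32 (-0.68 to 0.02). The 2 Vegfa receptors thus had their lowest level in MRL/lpr 10 weeks and their highest in C57BL/6 10 weeks.

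Plvap held 476 UMIs (3571 CPM), 720 (4422 CPM), 295 (3865 CPM) and 582 (4440 CPM), lower in both MRL/lpr libraries. Its log2 ratio was -0.31 (-0.48 to -0.14) in the younger and -0.20 (-0.41 to 0.00) in the older mice, and 0.15 at 10 weeks with nuclei of at least 500 UMIs. Ehd3 held 20, 26, 4 and 27 UMIs, and its low value in MRL/lpr 10 weeks gave a log2 ratio of -1.97 (-3.95 to -0.45), against -0.09 (-1.01 to 0.81) at 6 weeks.

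**Figure D4:**
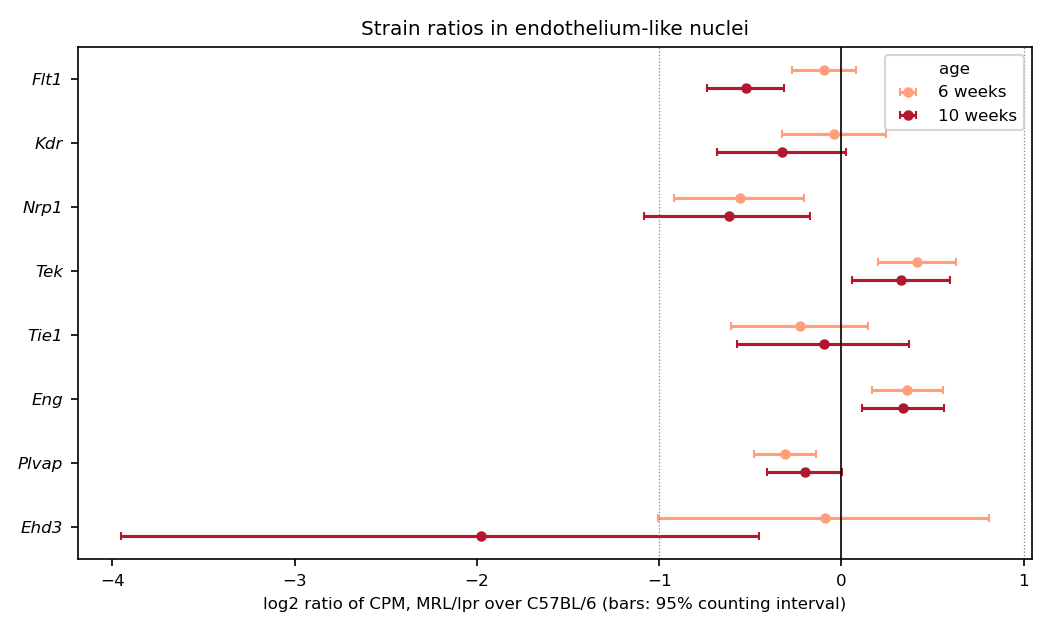
Log2 ratio of CPM in endothelium-like nuclei, MRL/lpr over C57BL/6, at 6 and at 10 weeks (x axis), with bars for the 95% counting interval and dotted lines at 2-fold. Tek and Eng lie above 0 and Nrp1 below 0 at both ages, and Flt1 lies below 0 at 10 weeks.

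Other cell types were measured in the same endothelium nuclei. Proximal tubule markers summed to 1343, 786, 839 and 793 CPM with all 10 detected, podocyte markers to 593, 583, 786 and 732 CPM, mural markers to 315, 590, 354 and 511 CPM and immune markers to 390, 123, 223 and 214 CPM. The mural list was lower in both MRL/lpr libraries, as Nrp1 was. Of its 10 genes, 5, 7, 1 and 9 were detected. In MRL/lpr 10 weeks all 27 UMIs of the list were Piezo2, so the sum there is that of 1 gene. The immune list was higher in MRL/lpr at each age, as Tek and Eng were, by little at 10 weeks. Of its 14 genes, 9, 8, 7 and 10 were detected. Ms4a1, Bank1 (both B cells) and Itgam were at 0 in all 4 libraries. The macrophage genes Csf1r, C1qa, C1qb and C1qc were detected in all 4, but Adgre1 was at 0 in C57BL/6 6 weeks and MRL/lpr 10 weeks. The T cell genes did not go together. Cd3e was at 0 in both C57BL/6 libraries, Themis in all but C57BL/6 10 weeks, and Skap1 in MRL/lpr 10 weeks only. Dock2 was at 0 in both MRL/lpr libraries. The part of these nuclei in the strain ratios was not tested. Without non-tubule nuclei that held a proximal tubule marker UMI, the 16 member ratios in endothelium kept their place within their intervals.

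Endothelium also differed in its makeup. By their leading markers 15.7, 10.6, 33.0 and 11.5% of endothelium nuclei were glomerular and 45.5, 38.1, 28.1 and 30.1% peritubular, with MRL/lpr 10 weeks holding the largest glomerular share. Among the markers behind these shares, Pi16 held 63, 22, 73 and 19 UMIs, Plat 73, 28, 91 and 30, and Igfbp3 390, 239, 101 and 77 in all endothelium nuclei. Other markers did not all follow. Of the glomerular list, Nostrin held 24, 42, 26 and 28 UMIs, Mapt 7, 5, 7 and 3, and Tbx3 2, 2, 10 and 6. Of the peritubular list, Nr2f2 held 22, 48, 17 and 40, Cd36 9, 48, 17 and 29, and Npr3 25, 18, 2 and 19. At 6 weeks Nostrin, Nr2f2 and Cd36 had fewer UMIs in MRL/lpr, where Pi16, Plat and Igfbp3 had more. The part of this makeup in the strain ratios was not tested. Arterial markers led 2.82% of endothelium nuclei and lymphatic markers led 1 nucleus.

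Plvap and Ehd3 UMIs did not mark separate nuclei. A Plvap UMI was found in 52 of 70 endothelium nuclei with an Ehd3 UMI (74.3%, 62.4 to 84.0) and in 857 of 1172 without one (73.1%, 70.5 to 75.6). In the 18 nuclei with an Ehd3 and no Plvap UMI, Tek was 0.265-fold (0.097 to 0.579) of the 857 with Plvap only. That rests on 6 Tek UMIs, with folds of 0.763, 0.134, 0.486 and 0.121 per library. The pooled intervals of Flt1, Kdr, Nrp1, Tie1 and Eng in that comparison spanned 1. With markers that exclude both genes, Plvap was 0.700-fold (0.604 to 0.809) in glomerular over peritubular nuclei, 192 against 452 nuclei pooled over the libraries. It was below 1 in each library, at 0.814, 0.837, 0.452 and 0.744, and the interval reached 1 in all but MRL/lpr 10 weeks. Flt1 was 0.771-fold (0.668 to 0.889), again below 1 in each library. Kdr was 0.797-fold (0.632 to 0.999), but at 0.472, 1.04, 0.773 and 1.04 it was below 1 in the MRL/lpr libraries only. Tek (0.891), Eng (1.07), Nrp1 (1.28), Tie1 (0.754) and Ehd3 (1.16) had pooled intervals spanning 1. Ehd3 had 13 and 26 UMIs and an interval of 0.546 to 2.33, so its known glomerular place was not seen with these markers. The part of depth and of the marker lists in this was not tested, and the glomerular name rests on the leading markers only. In the 35 arterial nuclei Plvap was 0.327-fold (0.214 to 0.479), Flt1 0.426-fold (0.293 to 0.600) and Tek 0.528-fold (0.341 to 0.783) of peritubular nuclei. Nrp1 was 1.63-fold (1.02 to 2.51) when pooled, but per library only C57BL/6 6 weeks cleared 1, at 2.14 (1.04 to 4.03). The intervals of MRL/lpr 6 weeks (0.594 to 4.81) and C57BL/6 10 weeks (0.406 to 2.20) spanned 1, and MRL/lpr 10 weeks had 0 UMIs.

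Receptor UMIs were also found in proximal tubule nuclei. Of the 9 members with at least 50 UMIs there, 1 lay above C57BL/6 at both ages in MRL/lpr (Nrp1, beside 33% of all genes), 1 lower (Vegfa, beside 28%), and 7 lay in opposite directions at the 2 ages. Many of all genes thus also lay in opposite directions, though that share was not computed. Flt1 was at 61.1, 21.9, 9.29 and 37.3 CPM from 306, 80, 37 and 138 UMIs, with log2 ratios of 1.48 (1.12 to 1.85) and -2.00 (-2.57 to -1.47). In the distal tubule 1 of 5 members, Plvap, was 2-fold apart at 6 weeks (7.46% of genes). In proximal tubule at 6 weeks 2 of the 9, Flt1 and Eng, were 2-fold apart (9.46% of genes), and at 10 weeks 4, Flt1, Eng, Plvap and Tie1 (11.4%). The 11 endothelium markers had the same highest and lowest library as Flt1, at 235, 158, 73 and 151 CPM in these nuclei, and 8.64, 11.7, 5.18 and 7.86% of them held an endothelium marker UMI. Without those nuclei, a comparison added after the data were seen, Flt1 was at 13.1, 13.2, 8.77 and 14.8 CPM. Kdr, Tek, Eng and Plvap then had log2 ratios of -0.38, -0.78, -0.25 and -0.88 at 6 weeks, so their excess in MRL/lpr 6 weeks was not there. Leaving out nuclei by endothelium markers also takes out endothelial UMIs, and the source of those UMIs was not tested.

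Nrp1 behaved differently in proximal tubule. It held 575 UMIs (115 CPM), 230 (63.1 CPM), 466 (117 CPM) and 294 (79.4 CPM), higher in MRL/lpr at each age. The log2 ratio was 0.86 (0.64 to 1.09) in the younger and 0.56 (0.35 to 0.78) in the older mice. Without nuclei that held an endothelium marker UMI the levels were 98.0, 57.5, 114 and 72.3 CPM, and over all alternatives the ratio stayed between 0.50 and 0.88 at 6 weeks and between 0.34 and 0.66 at 10 weeks. At the size of 1.25-fold it was the member higher at both ages, beside 9.15% of genes. Fibroblast markers, the class with much Nrp1, were at 16.4, 23.6, 15.8 and 18.4 CPM in these nuclei, and their part in the result was not tested. In the whole of the tubule the Nrp1 log2 ratio was 0.63 (0.44 to 0.83) and 0.41 (0.22 to 0.60). The other tubule classes held fewer Nrp1 UMIs, 95 in thick ascending limb, 206 in distal tubule and 54 in collecting duct, against 1565 in proximal tubule. No strain difference was detectable there at this depth, as the intervals spanned 0 at both ages. Their log2 ratios were -0.32 and -0.03 in thick ascending limb, -0.21 and 0.03 in distal tubule and 0.71 and -1.27 in collecting duct. Nrp1 was thus higher in MRL/lpr proximal tubule and lower in MRL/lpr endothelium.

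**Figure D5:**
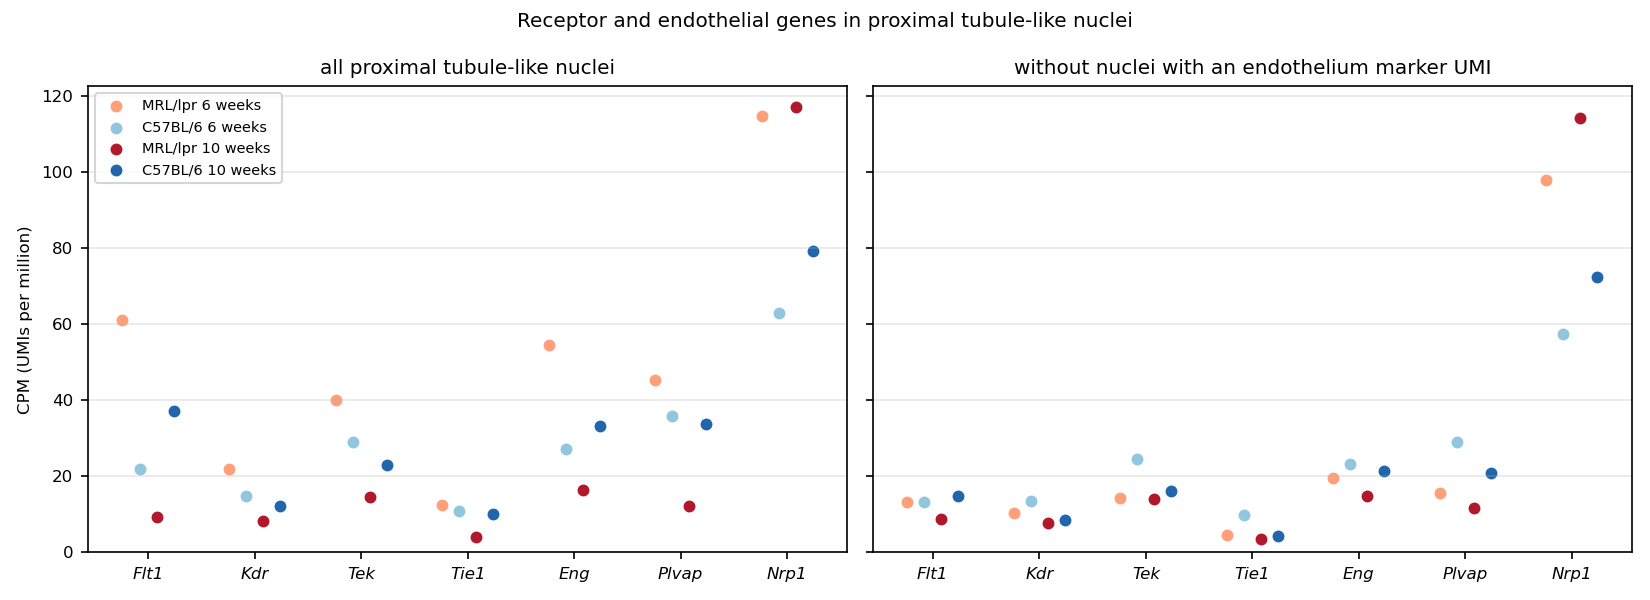
CPM of the receptor and endothelial genes in proximal tubule-like nuclei (y axis), 1 point per library, for all nuclei (left) and without nuclei holding an endothelium marker UMI (right). Flt1 in MRL/lpr 6 weeks is at 61.1 CPM on the left and 13.1 CPM on the right, while Nrp1 is higher in MRL/lpr at each age on both sides.

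Other genes of the pathway came from a list of 45 ligands, receptors and regulators. In endothelium 29 of them had at least 50 UMIs: 8 lay above C57BL/6 at both ages in MRL/lpr, 10 lower and 11 in opposite directions, close to the shares over all genes given above. Their median log2 ratio was -0.19 at 6 weeks and 0.16 at 10 weeks. Only Egln3, a prolyl hydroxylase that is itself induced by hypoxia, was 2-fold apart in the same direction at both ages. It held 17, 8, 21 and 4 UMIs, with log2 ratios of 1.38 (0.09 to 2.80) and 3.17 (1.61 to 5.18), and it sits at the limit of 50 UMIs. It dropped out with nuclei of at least 500 UMIs and with at least 3 marker UMIs per nucleus, which left 0 genes of the list 2-fold higher. With at least 500 UMIs 1 gene of the list was 2-fold lower at both ages.

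The 5 pathway genes with most endothelium UMIs were Ptprb, Tcf4, Klf2, Fli1 and Epas1. Tcf4, a transcription factor, held 156, 331, 84 and 230 UMIs (1170, 2033, 1101 and 1755 CPM), with log2 ratios of -0.80 (-1.08 to -0.52) and -0.67 (-1.05 to -0.31). Klf2, the shear stress factor, was at 735, 1069, 537 and 801 CPM, with log2 ratios of -0.54 (-0.91 to -0.17) and -0.58 (-1.13 to -0.04). For both genes the MRL/lpr library was the lower of each age. Ptprb, the phosphatase that restrains Tek, had log2 ratios of -0.19 (-0.47 to 0.08) and -0.35 (-0.68 to -0.03). Epas1 was at -0.03 and -0.46 and Fli1 at 0.22 and 0.18, each with an interval spanning 0.

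Genes with the most similar pattern were sought over 36 points, the 9 classes in 4 libraries, among 10654 genes, by Pearson's r of log2(CPM + 10). The points share libraries and classes, and the values are a description. For Vegfa these were Col4a3 (r = 0.93), Sdc4 (0.87) and Dcdc2a (0.84). For Flt1 they were Tll1 (0.92), Cd34 (0.90) and Rgcc (0.89), for Kdr AU021092 (0.88), Gpihbp1 (0.88) and Fam167b (0.86), and for Tek Ly6c1 (0.91), AU021092 (0.90) and Entpd1 (0.90). Tie1 was most like Icam2 (0.92), Cd34 (0.90) and Exoc3l2 (0.88), Eng like Stard9 (0.93), Ldb2 (0.92) and Kank3 (0.89), and Plvap like Adam15 (0.89) and Tll1 (0.86). Nrp1 was most like Ebf1 (0.92), Meis2 (0.89) and Ldb2 (0.88). Angpt1 was most like Adh1 (0.82), Xpc (0.79) and Kcp (0.78), and Ehd3 like Tnxb (0.88), Adarb1 (0.86) and Pola2 (0.85).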

How the data were processed

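Each library's deposited matrix holds UMI counts for each gene in each barcode. Cell Ranger was used by the authors: the file headers name version 5.0.0, whereas 3.1.0 stands in the submitters' processing notes. The barcodes had been called by the authors; their build, and their treatment of introns, is not given in the sources used here. Barcodes with fewer than 200 genes, over 10% mitochondrial UMIs or under 308 UMIs, the highest of the 4 library minimums, were left out. In each library the highest Scrublet scores (scanpy 1.11.5) were left out at 0.8% per 1000 barcodes. A nucleus took the class with most marker UMIs, given at least 2 UMIs over 2 markers, and a tie left it unclassed. UMIs were summed per class and library and scaled to CPM. Intervals are exact Poisson for levels, Clopper-Pearson for shares and conditional binomial for ratios; a count of 0 was set at 3 UMIs. Background shares used genes with at least 50 UMIs over a class, or 200 for the 1.25-fold size. No correction for free RNA was made. The calculation was tested on simulated data. The members, lists, markers and settings were chosen with earlier results of these data known. Named genes are all 10 members, pathway genes 2-fold apart in the same direction at both ages, the 5 with most UMIs and the 3 most similar genes per member. Of these similar genes, 1 is not reported here. Promoter sequences are from RefSeq, and 8 of 10 members matched. Alternatives were other UMI minimums, marker rules, doublet handling and scalings. Reads of overlapping or antisense genes may not be told apart.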

Additional observations from a re-analysis of the deposited data

Results flagged for a closer look

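In proximal tubule the strain ratios of 5 members lay on opposite sides of 0 at 6 and at 10 weeks, each with an interval clear of 0. The share of all proximal tubule genes that met this rule was not computed, so it cannot be said whether the members stand out. The log2 ratio at 6 weeks minus that at 10 weeks was 3.48 for Flt1, 2.03 for Eng, 1.79 for Plvap, 1.12 for Tek and -0.68 for Angpt1. With 1 library per group the difference was not tested. The choice of these 5 was made after the ratios had been seen. Flt1, Eng, Plvap and Tek are endothelial genes, and the endothelium marker list had the same highest and lowest library, at 235, 158, 73 and 151 CPM in the same nuclei. Without nuclei that held an endothelium marker UMI their log2 ratios at 6 weeks were -0.0071, -0.25, -0.88 and -0.78, in that order. At 10 weeks the levels in MRL/lpr and C57BL/6 were then 8.77 and 14.8 CPM for Flt1, 14.9 and 21.5 for Eng, 11.7 and 20.9 for Plvap and 14.1 and 16.0 for Tek, so the ratios at both ages were below 0. Angpt1 was nearly the same without those nuclei, at 241, 330, 440 and 359 CPM. The share of nuclei with an endothelium marker UMI, 8.64, 11.7, 5.18 and 7.86%, was highest in C57BL/6 6 weeks. Nuclei picked by endothelium markers take endothelial UMIs with them when left out, so this comparison does not show the source of those UMIs. The part of endothelial RNA in these ratios was not tested.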

How the results depend on the processing

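No paired analysis was possible because each group is 1 library and the labels give no replicate numbers that pair them. Of the 112 alternative values of the member strain ratios in endothelium, 101 stayed within the counting interval. With nuclei of at least 500 UMIs the log2 ratios at 6 weeks were -0.74 for Flt1, 0.63 for Kdr, -1.29 for Nrp1, -0.82 for Tie1, 0.65 for Eng and -0.54 for Plvap. At 10 weeks they were 0.19 for Flt1, 0.0087 for Nrp1, 0.81 for Eng and 0.15 for Plvap, so Flt1, Nrp1 and Plvap at 10 weeks and Kdr at 6 weeks changed sign. The Flt1 log2 ratio of 10 over 6 weeks in C57BL/6 became -0.50. Without a common UMI minimum Flt1 was -0.28 at 6 weeks. In tubule nuclei at 6 weeks, keeping doublets gave -0.017 for Flt1 in the whole tubule and, in proximal tubule, -0.48 for Kdr and -0.40 for Plvap. Leaving out nuclei with an endothelium marker UMI, chosen after seeing the data, gave -0.0071 for Flt1, -0.38 for Kdr, -0.78 for Tek, -0.25 for Eng and -0.88 for Plvap in proximal tubule, and -0.33 for Flt1 and -0.26 for Eng in the whole tubule. The number of endothelium genes 2-fold higher in MRL/lpr at both ages, 35, was 5 with at least 500 UMIs, 22 without nuclei holding a proximal tubule marker UMI and 117 with genes of at least 20 UMIs. The number lower, 30, was 65 without a common minimum, 2 with at least 500 UMIs and 135 with genes of at least 20 UMIs. Pathway genes higher, 1, became 3 without a common minimum, 2 with doublets kept or median-of-ratios size factors, and 0 with at least 500 UMIs or at least 3 marker UMIs. Pathway genes lower, 0, became 1 without a common minimum, with at least 500 UMIs and with doublets kept. For each of these the cause was not tested, beyond the smaller number of nuclei or genes that the setting itself leaves. Depth limits endothelium, at 354 to 375 median UMIs a nucleus and 185 nuclei in MRL/lpr 10 weeks, and mural cells, with 13 to 28 nuclei a library.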
